A study of Mus musculus with 12 samples.

Results

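The chemokine system was examined in the left ventricle of adult mice in which the cardiac transcription factor Nkx2-5 had been deleted in developing trabeculae. Its members were taken by name: every gene with a probe on the array, manufacturer's controls aside, whose name begins with Ccl, Cxcl, Ccr or Cxcr followed by a digit, together with Cx3cl1, Cx3cr1, Xcl1 and Xcr1. This gave 55 genes of the 34844 gene names on the array, 35 of them ligands and 20 receptors, measured by 71 probes. No gene was picked by its own value, though the rule was chosen with earlier results of these data known.

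Chemokines are small secreted proteins that guide leukocytes along concentration gradients, and they are named CC, CXC, CX3C or XC after the spacing of their first cysteines. They act on receptors that span the membrane and couple to G proteins, and one receptor usually serves several ligands, while atypical receptors take up ligands without that coupling. In the heart, Ccl2 and its relatives draw monocytes that carry Ccr2, Cx3cr1 marks monocytes and resident macrophages, and Cxcl12 is made by vessels and stroma.

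RNA came from the left ventricular wall with the apex and without the septum, from 12 mice aged 6 months, with 1 mouse per array and 4 arrays in each of 3 groups. By the methods' description all mice carried the floxed Nkx2-5 allele without its neomycin cassette, and mutants also carried Cx40-creERT2, a tamoxifen-inducible Cre under control of the Cx40 (Gja5) locus, which is broadly active in embryonic trabecular myocardium, so that deletion was confined to cells with Cre activity at the time of injection. Mothers were injected with tamoxifen at E10.5 and again at E11.5 for Nkx2-5ΔTrbE10 (TrbE10) mice, which the labels call Nkx2-5Δtrab, and at E13.5 and E14.5 for Nkx2-5ΔTrbE14 (TrbE14) mice, which the labels call Nkx2-5Δcomp. The methods give the controls as littermates homozygous for the floxed allele with 2 wild-type Cx40 alleles, hence without Cre, while the labels list them as not injected, and the pups of treated mothers were delivered by caesarean section and fostered by CD1 females. The Cre allele and, if the labels hold, tamoxifen and fostering therefore differ between mutants and controls along with Nkx2-5 and cannot be told apart from it.

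Values are log2 signals of one-colour arrays after quantile normalization, and a change is a difference of group means on that scale. The Nkx2-5 signal was between 11.89 and 12.23 in control hearts, between 11.21 and 11.67 in TrbE10 hearts and between 11.12 and 11.63 in TrbE14 hearts, so that every mutant heart lay below every control heart (log2 changes of -0.66, limma adjusted p = 0.0459, and -0.59, adjusted p = 0.106). All control and TrbE14 arrays shared slide 1 and all TrbE10 arrays lay on slide 2, so that slide and TrbE10 cannot be told apart, and control and TrbE14 lay in separate rows of their slide, so that row and TrbE14 cannot be told apart in that comparison. Y-linked signal was present on 1 control, 2 TrbE10 and 3 TrbE14 arrays. The mean level of 8 ventricular cardiomyocyte markers was between 16.04 and 16.23 on all 12 arrays. In whole tissue, fewer cells of a type and less RNA per cell cannot be told apart.

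Part of these genes could be measured in the adult left ventricle. A gene entered the tests when at least 1 of its probes was well above background, as the scanner's software flags it, on 3 or more arrays of 1 group. This kept 29 genes (39 probes), 21 of the 35 ligands and 8 of the 20 receptors, and 20 of the 29 were well above background on all 12 arrays. Of all 34844 gene names on the array 18021 passed the same filter, a share close to that of the 55 members. Since the filter looks at each group, a gene can pass through those groups alone in which it is high, so that its passing depends on its difference. This applies among others to Cxcl13 and Ccl4, which passed through the mutants, to Cxcr3, which passed through control and TrbE10, to Ccl11, Ccr8 and Ccr9, which passed through control alone, and to Ccl17, which passed through TrbE10 alone.

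Some ligands were measured without their receptor. The 4 ligands grouped here as monocyte-recruiting (Ccl2, Ccl7, Ccl8 and Ccl12) were well above background on every array. Ccr2, the receptor of Ccl2, was so on none. Cxcl13 was measured in both mutants without its receptor Cxcr5, and Cxcl12 was well above background on all arrays while Cxcr4, its signalling receptor, was so on 1 control, 2 TrbE10 and 1 TrbE14 array. The scavenging receptor for Cxcl12, Cxcr7 (now Ackr3), and the pairs of Cx3cl1 with Cx3cr1 and of Cxcl16 with Cxcr6 were present on every array. Both partners also passed the filter for Cxcl9 with Cxcr3, Ccl19 with Ccr7, Ccl25 with Ccr9 and Ccl8 with Ccr8. None of the 5 ligands of Cxcr2, which draw neutrophils, passed the filter (0 genes): Cxcl5 was well above background on 2 and Cxcl1 on 1 TrbE10 array. Cxcr2 reached that mark on 1 and Ccr6 on 2 TrbE14 arrays.

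Well above background on no array were 21 genes. They were the ligands Ccl1, Ccl3, Ccl20, Ccl22, Ccl26, Ccl28, Cxcl2, Cxcl3, Cxcl10, Cxcl15, Cxcl17 and Xcl1, and the receptors Ccr1, Ccr1l1, Ccr2, Ccr3, Ccr4, Ccr10, Cxcr1, Cxcr5 and Xcr1. For these genes the arrays give only an upper bound, set by the scanner's background.

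**Figure D1:**
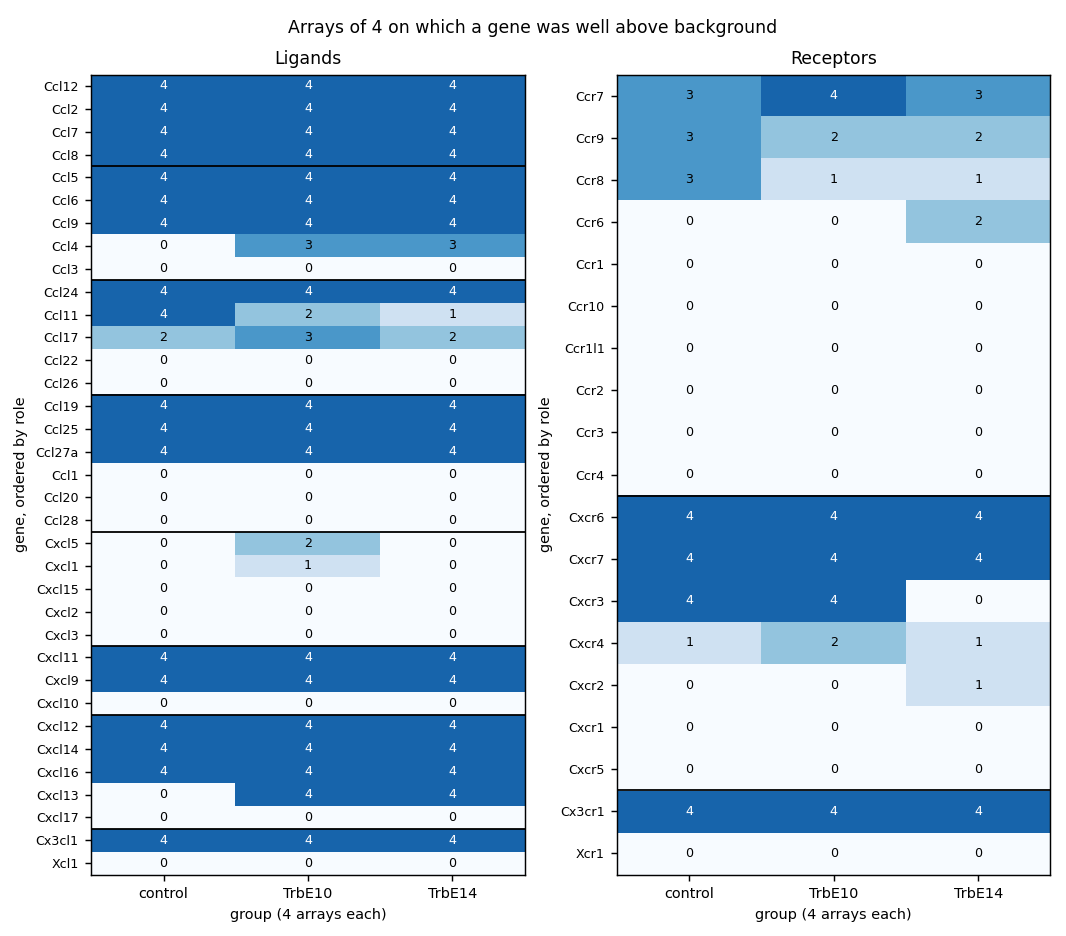
For 54 of the 55 genes, ordered by role, the number of arrays of 4 in each group (columns) on which its most often detected probe was well above background. The 4 monocyte-recruiting ligands reach 4 in every group, Cxcl13 goes from 0 in control to 4 in each mutant, Cxcr3 from 4 to 0 in TrbE14, and 9 of the 20 receptors stay at 0 throughout.

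The first question was which members differed from control after the early deletion. In TrbE10 hearts 2 of the 29 genes tested (6.90%), Cxcl13 and Cx3cl1, were called higher at a Benjamini-Hochberg adjusted p under 0.05 over all 24593 probes, against 1.36% of all 18021 genes tested. None was called lower (0 genes, against 0.788% of all genes). At an unadjusted limma p under 0.05 there were 9 of the 29 members, 7 higher and 2 lower. The share over the whole array, counted in probes and not in genes, was 16.4% in either direction. In 6 members (20.7%) all 4 TrbE10 arrays lay above all 4 control arrays, against 4.94% of all genes, and in 1 (3.45%) all lay below, against 5.63%. Cxcl13, Cx3cl1, Cxcl12, Cxcl16 and Ccl4 were among the 6, and the 1 was Ccl27a.

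In TrbE14 hearts 1 member, Cxcl13, was called higher (3.45%, against 0.583% of all genes) and 1, Cxcr3, was called lower (3.45%, against 0.178%). At an unadjusted limma p under 0.05 there were 11 of the 29 members, 5 higher and 6 lower, beside 13.6% of all probes. All 4 arrays lay above control for Cxcl13, Cx3cl1 and Cxcl12 (10.3%, against 4.65%), and all 4 lay below it for Ccl8, Cxcl14, Cxcr3 and Cxcr6 (13.8%, against 5.43%). Shares of so few members move by a whole gene at a time, and with 4 arrays against 4 the smallest two-sided p of an exact permutation test is 0.0286.

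Across the 29 genes the median log2 change was -0.11 in TrbE10 hearts (14 higher, 15 lower) and -0.25 in TrbE14 hearts (11 higher, 18 lower), beside -0.025 and -0.031 over all genes tested. The lowest and highest changes were -1.49 and 5.50 in TrbE10 hearts, and -2.75 and 5.05 in TrbE14 hearts. The median was 0.01 for the 21 ligands and -0.22 for the 8 receptors in TrbE10 hearts, and -0.05 and -0.27 in TrbE14 hearts. Both comparisons share the 4 control arrays.

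**Figure D2:**
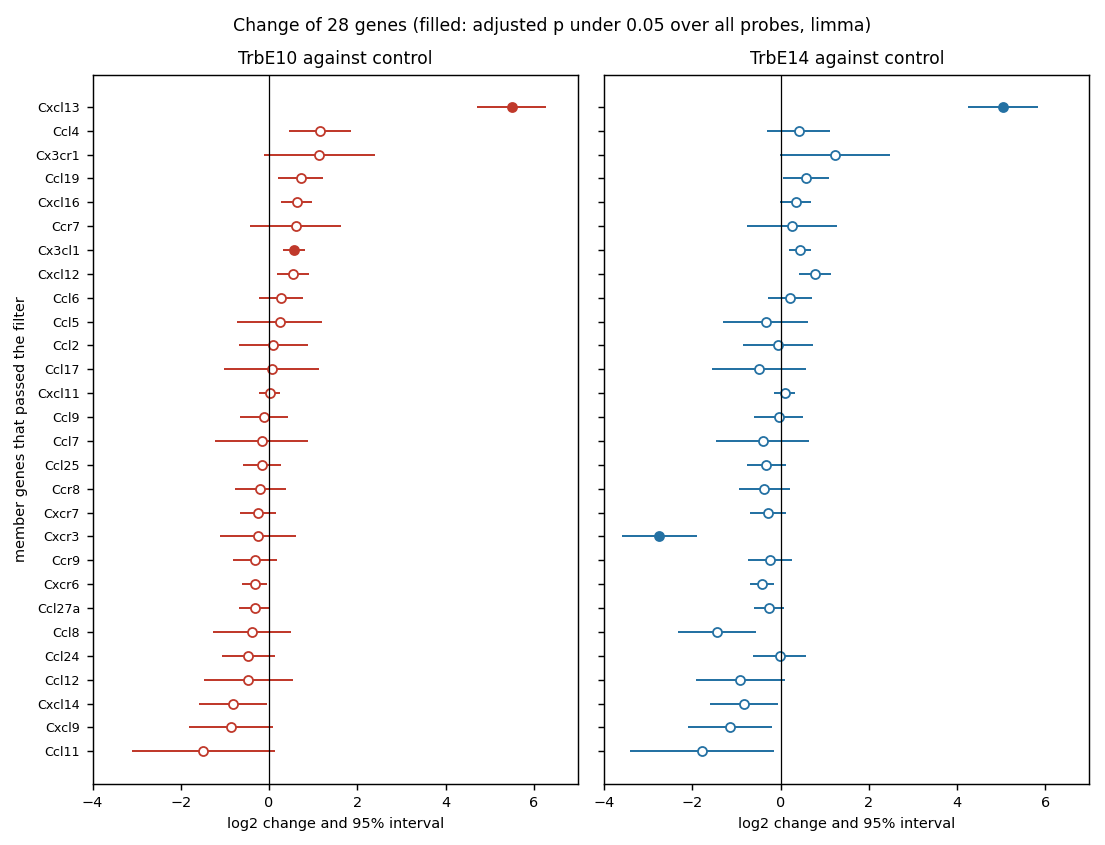
Log2 change against control (points) with its 95% interval from limma (lines) for 28 of the 29 genes that passed the filter, TrbE10 on the left and TrbE14 on the right, in the order of the TrbE10 change. Filled points had an adjusted p under 0.05. Cxcl13 stands apart on the right at 5.50 and 5.05, Cxcr3 on the left at -2.75 in TrbE14 alone, and most intervals of the other genes include 0.

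Upstream sequence is shown for the 3 called members, so that the letters next to their starts can be seen beside their values. The windows are the 250 bases before the RefSeq start on GRCm38.p6, from chr5:95956689-95956938 (plus strand) for Cxcl13, chr8:94771930-94772179 (plus strand) for Cx3cl1 and chrX:101734148-101734397 (minus strand) for Cxcr3. They are written 5′ to 3′ along the gene, and capitals mark the letters TATAAA.
Cxcl13: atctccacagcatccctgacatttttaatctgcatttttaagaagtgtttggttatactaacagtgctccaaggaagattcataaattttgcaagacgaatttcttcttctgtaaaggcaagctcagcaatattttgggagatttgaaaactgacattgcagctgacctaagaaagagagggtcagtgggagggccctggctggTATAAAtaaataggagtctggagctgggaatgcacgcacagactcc
Cx3cl1: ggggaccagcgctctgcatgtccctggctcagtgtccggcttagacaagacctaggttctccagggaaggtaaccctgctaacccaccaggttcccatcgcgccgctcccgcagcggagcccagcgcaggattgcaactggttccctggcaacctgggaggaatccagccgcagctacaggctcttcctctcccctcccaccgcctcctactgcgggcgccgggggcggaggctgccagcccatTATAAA
Cxcr3: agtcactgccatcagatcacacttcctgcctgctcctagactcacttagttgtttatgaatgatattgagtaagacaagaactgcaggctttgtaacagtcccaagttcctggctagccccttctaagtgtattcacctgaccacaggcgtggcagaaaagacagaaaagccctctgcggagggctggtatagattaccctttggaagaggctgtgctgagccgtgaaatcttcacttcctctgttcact
TATAAA lay 46 to 41 bases before the start of Cxcl13 and 6 to 1 bases before that of Cx3cl1, and was not found in the window of Cxcr3. On either strand it was in 12.4% of 32851 windows of the same length and in 7 of the 18 tested members that had a window (Ccl8, Ccl9, Ccl12, Ccl25, Cx3cl1, Cxcl9 and Cxcl13). It was searched for after the windows had been read, and members such as Ccl2, Ccl4, Ccl5, Ccl7, Ccl11, Ccl24, Ccr7, Cxcl11, Cxcl16 and Cxcr7 had no window in the table. The NK-2 homeodomain motif TNAAGTG, which Nkx2-5 binds, was in 10.1% of all windows and in those of Ccl25, Ccr8 and Cxcr6. The kappaB motif of NF-kappaB (1.41% of all windows), the interferon-stimulated response element (2.98%), the motif TTCNNNGAA (STAT factors, 7.02%) and TGANTCA (Fos and Jun, 6.75%) were, like TNAAGTG, searched on both strands and matched none of the 3 windows printed here.

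Among the ligands, Cxcl13, which guides B cells and some T cells into lymphoid follicles through Cxcr5, changed the most. Its signals were 3.69, 2.89, 2.28 and 2.30 in control hearts, none of them well above background. In TrbE10 hearts they were 8.05, 7.65, 8.95 and 8.52, and in TrbE14 hearts 7.48, 7.83, 7.74 and 8.28. The groups did not come near each other, with a gap between every control and every mutant heart, while the mutants overlapped.

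The measured means of Cxcl13 were 2.79 ± 0.66 (SD, n = 4) in control, 8.29 ± 0.56 in TrbE10 and 7.83 ± 0.33 in TrbE14 hearts. Because control hearts were not well above background, the change is given as a bound, at least 3.85 on the log2 scale in TrbE10 hearts, or 14.4-fold (limma adjusted p = 2.43e-05), and at least 3.39 on the log2 scale in TrbE14 hearts (adjusted p = 7.72e-05). The bound sets the mutants' mean against the lowest signal that counted as well above background on each control array, or against Cxcl13 itself where it was the brighter of both. That lowest signal is no strict detection limit. On control replicate 3 it was 4.674, where Cxcl10 gave 5.11 and was not flagged. Both bounds apply to the present normalization. Fitted folds were 5.46 in TrbE10 and 4.06 in TrbE14 hearts after normexp background correction. From the authors' normalized values they were 9.45 and 6.87, with limma adjusted p of at most 5.21e-04 in all 4 cases. Between the mutants the difference was 0.46 (95% interval -0.30 to 1.22, adjusted p = 0.943). Of 9 B cell and follicle markers, 6 were tested and none was called in either mutant by limma (0 genes), with medians of -0.07 and -0.30, and the mean level of the 6 was between 5.46 and 5.83 in control, between 5.57 and 5.92 in TrbE10 and between 5.41 and 5.66 in TrbE14 hearts. In each mutant 2 of the 6 were higher and 4 lower than in control. The 2 were Cd79b and Cd79a. Cd79b differed from control by 0.97 in TrbE10 (limma adjusted p = 0.0559, just above the threshold) and by 0.93 in TrbE14 hearts (adjusted p = 0.106). Cd79a differed by 0.23 and 0.07, and Ms4a1 was well above background on no array.

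Cx3cl1, or fractalkine, is a chemokine tethered to the surface of endothelial and other cells. Its signals were 9.59, 9.86, 9.50 and 9.67 in control hearts, 10.17, 10.14, 10.47 and 10.10 in TrbE10 hearts, and 10.14, 10.05, 10.11 and 10.07 in TrbE14 hearts. Every mutant heart lay above every control heart, and the TrbE14 hearts lay within a narrow band. With a standard error of 0.10, TrbE10 hearts exceeded controls by 0.57 on the log2 scale (a fitted 1.48-fold, adjusted p = 0.0213) and TrbE14 hearts by 0.44 (adjusted p = 0.0959). The TrbE10 call was lost with the replicate number as a block (adjusted p = 0.0632), with the pair of groups alone (0.0756), and without control replicate 1 (0.0606), control replicate 3 (0.0616), control replicate 4 (0.0633) or TrbE10 replicate 3 (0.0540). The mutants differed by 0.13 (95% interval -0.10 to 0.36, adjusted p = 0.946). Of 8 endothelial markers none was called (0 genes), and their mean level was between 10.57 and 10.73 in control, between 10.80 and 10.92 in TrbE10 and between 10.88 and 10.99 in TrbE14 hearts. The groups of that list did not overlap control either, and its part in the Cx3cl1 values was not tested.

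Cx3cr1 is the receptor of Cx3cl1 on monocytes, macrophages and some lymphocytes. Control hearts gave 7.50, 7.29, 8.14 and 7.90. TrbE10 hearts gave 9.15, 9.99, 8.26 and 7.99, and TrbE14 hearts 9.84, 10.05, 7.96 and 7.90. In each mutant replicates 1 and 2 stood above all controls by a wide margin. Replicates 3 and 4 lay at or near the control range, so that the groups overlapped. The same replicate numbers were thus high in both mutants, and what same-numbered arrays may share was not tested. The means differed from control by 1.14 in TrbE10 (adjusted p = 0.344) and by 1.23 in TrbE14 (adjusted p = 0.370), each with a standard error of 0.56, and neither was called. A second probe gave 0.78 and 0.99.

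Ccr2, which brings monocytes out of the bone marrow and into tissue, had signals between 2.43 and 3.98 over the 12 arrays, none well above background. In control hearts they were 2.48, 2.90, 2.95 and 2.43, in TrbE10 hearts 3.82, 2.47, 3.79 and 3.16, and in TrbE14 hearts 2.48, 3.75, 3.98 and 2.46. The groups overlapped, and with no filter the adjusted p was 0.689 in TrbE10 and 0.738 in TrbE14 hearts. The transcript was thus not detectable on these arrays, and its order between groups cannot be read.

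**Figure D3:**
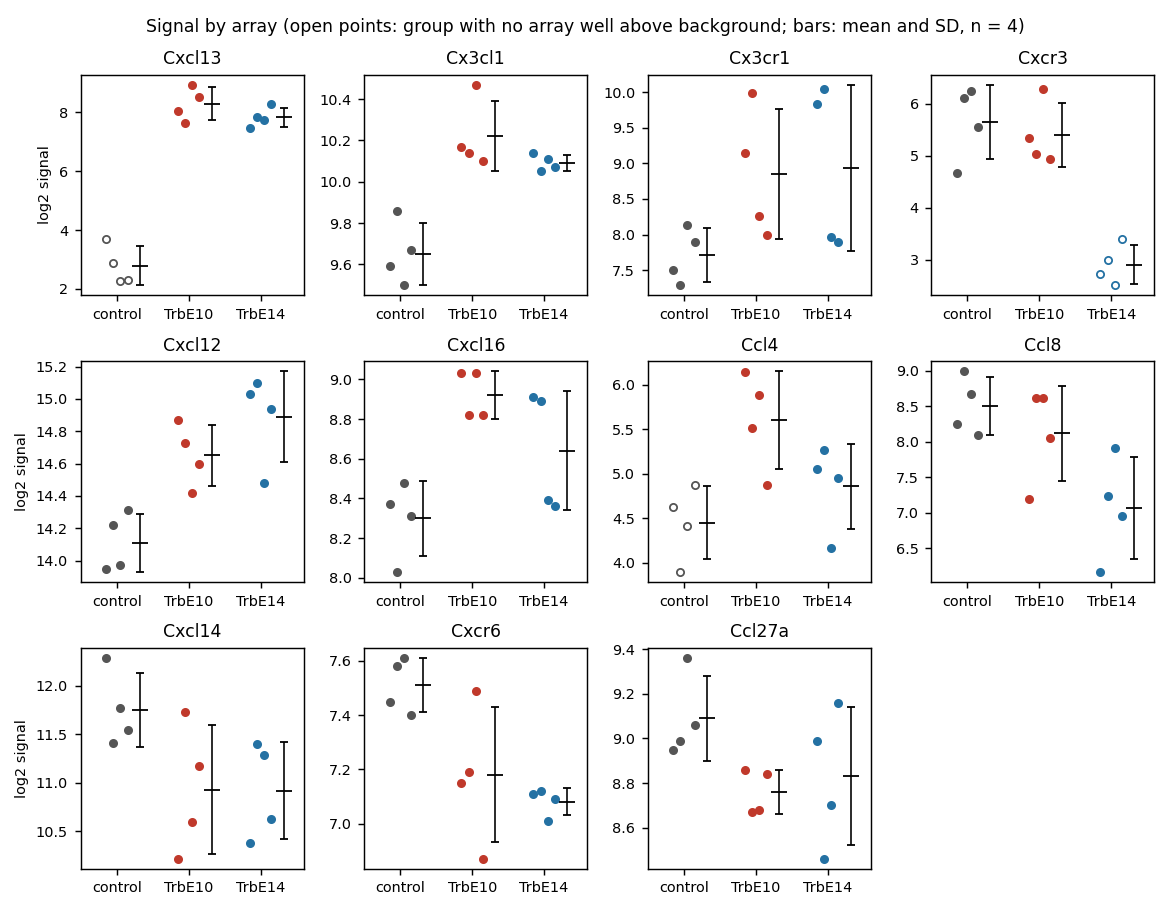
Log2 signal (vertical axis) on each array for 11 genes, by group, with the mean and SD (n = 4) beside the points. Open points mark a group in which the gene was well above background on no array. Cxcl13 and Cx3cl1 do not overlap between control and either mutant, Cx3cr1 falls into a high and a low pair of hearts in each mutant, and Cxcr3 lies at or below 3.39 in TrbE14 hearts only.

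Of the other CXC ligands, Cxcl12 retains blood cells in their niches through Cxcr4. Its brighter probe gave 13.95, 14.22, 13.97 and 14.31 in control hearts, 14.87, 14.73, 14.42 and 14.60 in TrbE10 hearts, and 15.03, 15.10, 14.48 and 14.94 in TrbE14 hearts. No mutant heart overlapped the controls. This probe differed from control by 0.54 in TrbE10 (adjusted p = 0.103) and by 0.78 in TrbE14 (adjusted p = 0.0506, just above the threshold), with a standard error of 0.15. The TrbE14 change was called with normexp (0.0288), the authors' normalized values (0.0409), the replicate block (0.0338) and without TrbE14 replicate 3 (0.0155). A second probe of Cxcl12 pointed the other way, with -0.22 (adjusted p = 0.710) and -0.51 (adjusted p = 0.398), so the direction for the gene as a whole depends on the probe.

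Cxcl16 is a membrane-bound ligand of Cxcr6 that also takes up oxidized lipoprotein. Its signals were 8.37, 8.03, 8.48 and 8.31 in control hearts, 9.03, 8.82, 9.03 and 8.82 in TrbE10 hearts, and 8.91, 8.89, 8.39 and 8.36 in TrbE14 hearts. The TrbE10 hearts lay above all controls, and in TrbE14 hearts 2 lay above and 2 within them. The differences from control were 0.63 (adjusted p = 0.0637) and 0.34 (adjusted p = 0.352), each with a standard error of 0.15. Neither was called by limma on the values used here, and the TrbE10 change was called after normexp (adjusted p = 0.0397), with Y-linked signal as a covariate (0.0488) and by SAM.

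Cxcl14, a ligand of skin and stroma, had signals of 12.28, 11.41, 11.77 and 11.54 in control hearts. They were 10.22, 11.73, 10.60 and 11.17 in TrbE10 and 10.38, 11.40, 11.29 and 10.63 in TrbE14 hearts. Only in TrbE14 did every heart lie below every control, and narrowly so. The differences from control were -0.82 (adjusted p = 0.265) and -0.83 (adjusted p = 0.327). With Y-linked signal as a covariate it was called in both mutants, at -1.03 (adjusted p = 0.0285) and -1.25 (adjusted p = 0.0296).

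Of the 3 interferon-induced ligands of Cxcr3, which draw activated T and NK cells, Cxcl10 was on no array. Cxcl9 had means of 7.56 in control, 6.68 in TrbE10 and 6.42 in TrbE14 hearts, with adjusted p of 0.334 and 0.282. The brightest probe of Cxcl11 had means of 16.28, 16.29 and 16.37, with differences from control of 0.01 and 0.09. In RefSeq's GRCm38.p6 annotation Cxcl11 is a transcribed pseudogene that lies within the span of Art3, a gene expressed in striated muscle, whose own probe had signals between 12.61 and 13.47 over the 12 arrays, and the part of Art3 transcripts in the Cxcl11 signal was not tested.

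The CC ligands fall into several roles. Among the ligands grouped as monocyte-recruiting, Ccl8, in mice a ligand of Ccr8, was the member that stood out. Its signals were 8.25, 8.99, 8.67 and 8.10 in control hearts, 7.19, 8.62, 8.61 and 8.05 in TrbE10 hearts, and 6.17, 7.24, 7.91 and 6.95 in TrbE14 hearts. The TrbE14 hearts lay below all controls and the TrbE10 hearts overlapped them.

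Ccl8 differed from control by -0.39 in TrbE10 (adjusted p = 0.677) and by -1.44 in TrbE14 (adjusted p = 0.157), each with a standard error of 0.39. Of the alternatives run, only the replicate block called the TrbE14 change (adjusted p = 0.0313). The mutants differed by 1.05 (95% interval 0.18 to 1.92, adjusted p = 0.791). Ccl2, the main ligand of Ccr2, had means of 8.76 in control, 8.85 in TrbE10 and 8.70 in TrbE14 hearts, with changes of 0.09 and -0.05. The 4 ligands of this role differed from control by between -0.47 and 0.09 in TrbE10 and between -1.44 and -0.05 in TrbE14 hearts, none called.

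The inflammatory ligands Ccl3, Ccl4, Ccl5, Ccl6 and Ccl9 include Ccl4, made by activated macrophages and lymphocytes. Its control signals, 4.63, 3.90, 4.41 and 4.87, were not well above background. They were 6.14, 5.51, 5.88 and 4.87 in TrbE10 hearts and 5.05, 5.27, 4.17 and 4.95 in TrbE14 hearts, 3 of 4 well above background in each. The TrbE10 hearts lay above the controls, with the lowest of them level with the highest control to 2 decimals, and the TrbE14 hearts overlapped. Its signal, with a mean of 4.45 in control, was at least 1.94-fold higher in TrbE10 (mean 5.60, adjusted p = 0.0942) on the present normalization, but the fitted fold was 1.27 after normexp and 1.51 from the authors' normalized values. In TrbE14 the mean was 4.86 (a difference of 0.41, with fitted folds of 1.03 and 1.06 from these alternatives, adjusted p = 0.568), and Ccl4 was called in neither mutant. The RefSeq span of Ccl4 overlaps that of Ccl3, which was on no array. The other 3 ligands of this role, Ccl5, Ccl6 and Ccl9, differed from control by between -0.34 and 0.26, with Ccl6 at means of 10.74, 11.00 and 10.95 and Ccl9 at 9.58, 9.47 and 9.54 in control, TrbE10 and TrbE14 hearts.

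Ligands of Ccr3 and Ccr4 attract eosinophils and T helper cells. Ccl11, or eotaxin, was well above background on 4 control, 2 TrbE10 and 1 TrbE14 arrays and had means of 5.68, 4.19 and 3.89 (adjusted p = 0.341 and 0.326). It passed the filter through control alone and was called lower in both mutants only with Y-linked signal as a covariate. Ccl24 had means of 8.16, 7.69 and 8.14 and Ccl17 means of 5.10, 5.16 and 4.61, and neither was called.

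The homeostatic ligands Ccl19, Ccl25 and Ccl27a guide lymphocytes to lymph nodes, gut and skin. Ccl27a had signals of 8.95, 8.99, 9.36 and 9.06 in control, 8.86, 8.67, 8.68 and 8.84 in TrbE10 and 8.99, 8.46, 8.70 and 9.16 in TrbE14 hearts. The TrbE10 hearts lay just below the controls, with a change of -0.33 (adjusted p = 0.306), while its other probes gave -0.08 and -0.10. Ccl19 differed from control by 0.72 in TrbE10 (adjusted p = 0.144) and 0.58 in TrbE14 (adjusted p = 0.302), with its 3 probes between 0.53 and 0.75 and between 0.36 and 0.64. Ccl25 had means of 7.89, 7.72 and 7.58 by its brightest probe, with changes of -0.17 and -0.32. A dimmer tested probe, not used for the counts of overlap above, gave 5.23, 5.67, 5.33 and 5.56 in control hearts. It gave 5.05, 4.50, 5.08 and 5.80 in TrbE10 and 5.13, 4.54, 4.19 and 4.60 in TrbE14 hearts. By this probe all TrbE14 hearts lay below all controls (-0.83, limma adjusted p = 0.215), 1 of them well above background. Neither probe was called. Ccl19 and Ccl27a have near-identical copies in the mouse genome, so their probes may not separate them from those copies.

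Among the receptors, Cxcr3 was the one called. It sits on activated T and NK cells and is encoded on the X chromosome. Its signals were 4.67, 6.12, 6.25 and 5.56 in control hearts and 5.34, 5.03, 6.29 and 4.93 in TrbE10 hearts, all well above background. In TrbE14 hearts they were 2.73, 2.99, 2.51 and 3.39, none well above background. TrbE14 stood apart from both other groups, which overlapped each other.

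Measured means of Cxcr3 were 5.65 ± 0.72 (SD, n = 4) in control, 5.40 ± 0.62 in TrbE10 and 2.90 ± 0.38 in TrbE14 hearts. On the present normalization its signal was at least 2.49-fold lower in TrbE14 than in control hearts (limma adjusted p = 0.00740). With the authors' normalized values the change was -0.73, a fitted 1.66-fold, and no longer called (adjusted p = 0.329), and after normexp it was -0.71 and called (adjusted p = 0.0358). In TrbE10 hearts the change was -0.25 (adjusted p = 0.787).

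Compared directly, Cxcr3 was at least 2.09-fold higher in TrbE10 than in TrbE14 hearts on the present normalization, with an unadjusted p of 3.58e-05 in limma and an adjusted p of 0.141, which does not pass. The fitted fold of this comparison was 1.56 after normexp (adjusted p = 0.179) and 1.39 from the authors' normalized values (adjusted p = 0.972). It was the single member whose TrbE10 and TrbE14 arrays did not overlap, higher in TrbE10 (1 of 29, 3.45%, against 1.64% of all genes), and none was lower (0 of 29, against 1.73%). No gene on the array was called between the mutants (0 of 18021, or 0%), 3 of the 29 members had an unadjusted p under 0.05 (beside 5.76% of all probes), and SAM called 0 members. Of 10 T cell markers 6 were tested and none was called (0 genes), with medians of 0.07 in TrbE10 and -0.02 in TrbE14 hearts. Their mean level was between 7.10 and 7.72 in control, between 7.34 and 7.51 in TrbE10 and between 7.08 and 7.52 in TrbE14 hearts. Cd3e and Cd4 were among those tested and Cd8a and Cd8b1 were on no array. Of 8 NK cell markers 3 were tested, with a mean level between 6.19 and 6.62 in control, between 6.10 and 6.44 in TrbE10 and between 5.76 and 6.39 in TrbE14 hearts, and Ncr1 and Klrb1c were on no array.

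Cxcr6, the receptor of Cxcl16 on resident T and NKT cells, had signals of 7.45, 7.58, 7.61 and 7.40 in control, 7.15, 7.19, 7.49 and 6.87 in TrbE10 and 7.11, 7.12, 7.01 and 7.09 in TrbE14 hearts. The TrbE14 hearts lay below all controls, and 1 TrbE10 heart overlapped them. The change was -0.33 (adjusted p = 0.187) and -0.43 (adjusted p = 0.155), and a second, dimmer probe gave 0.11 and -0.56. Cxcr7, which was present on every array, had means of 11.68, 11.43 and 11.39 and was not called.

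The lymph node receptor Ccr7 had means of 4.94, 5.55 and 5.21, Ccr8 of 5.08, 4.88 and 4.71 and Ccr9 of 5.21, 4.88 and 4.96, all close to background and none called.

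Other genes of the pathway were read from lists of known members. Of 5 atypical or scavenging receptors 4 were tested, and Ccbp2 (now Ackr2), which clears inflammatory CC chemokines, rose by 1.38 in TrbE10 hearts (adjusted p = 0.0237). Of 13 other chemoattractants and receptors 11 were tested, with medians of 0.16 and 0.05, and Pf4, the platelet and macrophage chemokine that does not carry a Cxcl name on the array, rose by 0.53 in TrbE10 hearts (adjusted p = 0.0234). Of 26 genes of chemokine receptor signalling 21 were tested, with medians of 0.35 in TrbE10 (16 higher) and 0.19 in TrbE14 hearts (14 higher). Vav1, an exchange factor for Rac, rose by 0.88 (adjusted p = 0.00128) and Arrb2, which desensitizes the receptors, by 0.70 (adjusted p = 0.0325), both in TrbE10 hearts, and none was called in TrbE14 hearts (0 genes).

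Of 18 genes of leukocyte adhesion 14 were tested, with medians of 0.21 and 0.16. The leukocyte integrin Itgal rose by 0.92 in TrbE10 (adjusted p = 0.0131) and 0.80 in TrbE14 (adjusted p = 0.0437), and its partner Itgb2 rose by 0.36 in TrbE10 hearts (adjusted p = 0.0458). Itgam was called higher in TrbE10 hearts by 1 of its 2 probes (0.60, adjusted p = 0.0392), while the brighter one gave -0.09. Of 25 cytokines and factors that induce chemokines 14 were tested, with medians of 0.14 and 0.11, and Tnfrsf1a, a receptor for tumour necrosis factor, rose by 0.43 in TrbE10 hearts (adjusted p = 0.0318). Of 15 genes that process or present chemokines 8 were tested and none was called (0 genes), with medians of 0.03 and 0.07. No gene of these 6 lists was called lower in either mutant (0 genes).

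Of the marker lists, that of monocytes and macrophages was the longest and had the most called genes in TrbE10 hearts. In TrbE14 hearts it had 1, as had the mast cell and fibroblast lists. All 18 monocyte and macrophage markers were tested. Called higher were 6 in TrbE10 hearts (Csf1r, C1qa, C1qc, Aif1, Cd68 and Fcgr1) and 1, Csf1r, in TrbE14 hearts. Over all genes tested the shares called higher were 1.36% and 0.583%. Fcgr1 was well above background on no control array. The 18 markers had medians of 0.61 (17 higher) and 0.30 (15 higher). Their mean level was between 8.10 and 8.40 in control, between 8.70 and 9.0 in TrbE10 and between 8.54 and 8.59 in TrbE14 hearts, without overlap with control. Csf1r, the receptor that macrophages need to survive, rose by 1.14 (adjusted p = 1.12e-04) and 0.92 (adjusted p = 6.07e-04). By replicate 1 to 4 the mean marker level was 8.97, 8.70, 9.0 and 8.82 in TrbE10 hearts. In TrbE14 hearts it was 8.59, 8.56, 8.58 and 8.54. Cx3cr1 was high in replicates 1 and 2 of each mutant, and its relation to the mean marker level was not tested.

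Of 9 mast cell and eosinophil markers 5 were tested, with medians of 1.08 and 0.90. The mast cell protease Cpa3 was on no control array (mean 2.86). On the present normalization it was at least 2.05-fold higher in TrbE10 (mean 5.48, adjusted p = 0.00505). In TrbE14 (mean 5.19, adjusted p = 0.0161) it was at least 1.68-fold higher on that normalization. Their mean level was between 4.68 and 5.41 in control, between 5.49 and 7.17 in TrbE10 and between 5.77 and 6.46 in TrbE14 hearts, and Fcer1a and Epx were on no array. All 8 fibroblast markers were tested, with a mean level between 10.52 and 10.85 in control, between 10.95 and 11.32 in TrbE10 and between 10.84 and 11.31 in TrbE14 hearts, and Dcn, a matrix proteoglycan, rose by 0.39 (adjusted p = 0.0376) and 0.50 (adjusted p = 0.0190). Neutrophil (5 of 9 tested, medians 0.46 and 0.04), dendritic cell (5 of 8, medians 0.00 and -0.58), platelet (2 of 6, medians 0.18 and 0.30) and lymphatic endothelial markers (4 of 5, medians -0.19 and -0.18) had no called gene (0 genes). The part that any of these cells has in the chemokine values was not tested.

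**Figure D4:**
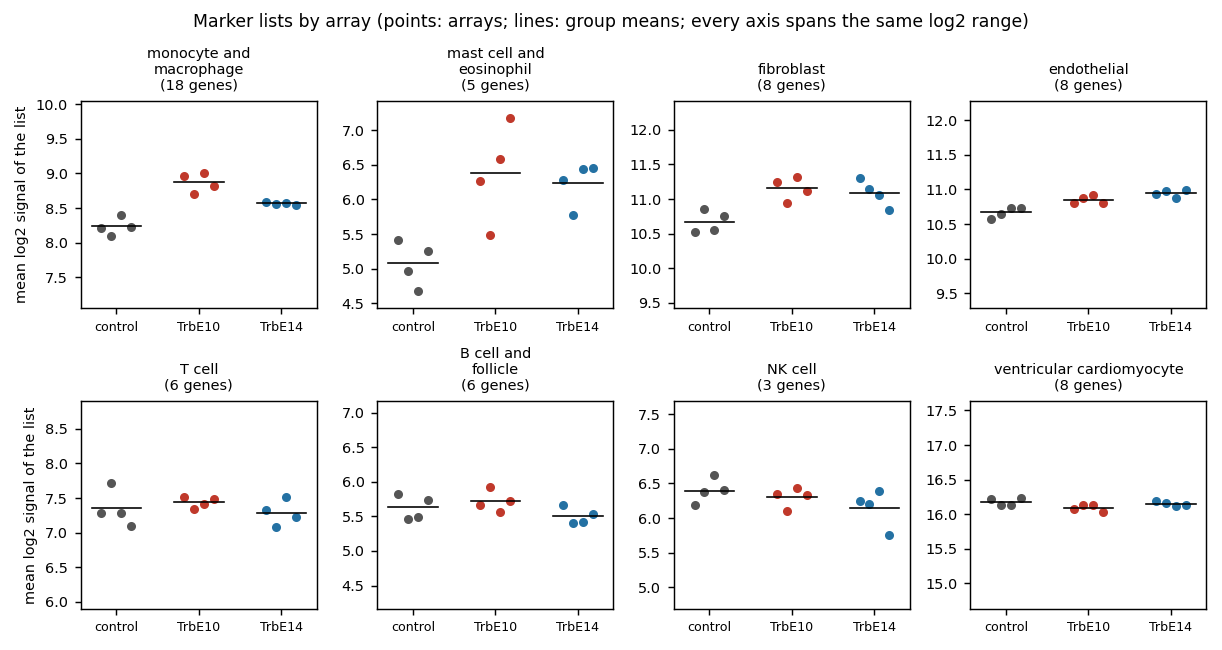
Mean log2 signal of the tested genes of 8 marker lists on each array (points) with the group mean (lines), every vertical axis spanning the same range. Macrophage, mast cell and endothelial lists lie higher in both mutants than in control, without overlap, and the fibroblast list does so in TrbE10. The T cell, B cell and NK cell lists overlap between groups, and the cardiomyocyte list stays between 16.04 and 16.23.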

How the data were processed

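Left ventricular RNA of 12 mice, 4 per group, was hybridized to 12 one-colour Agilent arrays of 62976 spots, 1 mouse per array. Per the file headers and the submitters' processing notes, spots were quantified with Agilent Feature Extraction 10.5. The authors deposited for each array the processed signal, a linear intensity after background subtraction within the array and without scaling between arrays, and one table of log2 values that they had quantile normalized and filtered on background (22114 rows).

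Intensities were log2-transformed and quantile normalized with limma 3.58.1 in R 4.3.3. Control spots were removed, between 93 and 131 outlier spots per array were set to missing, spots of a probe were averaged, and probes well above background on at least 75% (3 of 4) of the arrays of any group were kept (24593 probes, 18021 genes). After this 7 probes had a missing value, and 0 spots were saturated. Between 22888 and 26155 probes per array were well above background. Precision is limited by the number of arrays.

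One linear model with a mean per group (9 residual and 2.19 prior degrees of freedom) was fitted with limma, and p-values were adjusted by Benjamini-Hochberg within each of 3 comparisons over all probes. A gene was called when 1 of its probes had an adjusted p under 0.05 and was represented by its probe of highest mean. For a group with no array well above background, bounds were computed as the report describes. Exact permutation tests used all 70 label orders. The method was tested on simulated data.

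The members, marker lists and tests were chosen with earlier results of these data known. Every array is given for Cxcl13, Ccr2, Cx3cr1, called members and members whose arrays do not overlap between control and a mutant; other members are given by range, with the brightest per role as examples. Of the other lists, called genes are named. Some items are not reported here. Nothing in the labels says more of the replicates than that they are separate mice, so p-values measure the spread between these hearts.

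The results were recomputed with scaling to each array's 75th percentile, normexp (offset 50), the authors' log2 values, probes required on 9 of 12 arrays, all probes, only the 2 groups compared, the replicate number as a block, Y-linked signal as a covariate, 2-class SAM at a false discovery rate of 5%, and each array left out in turn. RefSeq symbols matched 54 members and a synonym 1. The genome build of the probe positions was not given in the sources used here, and no probe position is printed. Figures used matplotlib 3.10.9 (Python 3.11.15).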

Additional observations from a re-analysis of the deposited data

Results flagged for a closer look

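Of 84 sets of 4 arrays (28 genes in 3 groups), 3 held 1 array far from the other 3, by Dixon's test at the 95% level, which flags about 1 set in 20 by chance. Ccr7 in TrbE10 replicate 4 had a log2 signal of 6.14, against 5.33 to 5.38 in the others. Ccr9 had 5.87 in control replicate 3, against 4.91 to 5.06, and 5.44 in TrbE14 replicate 2, against 4.74 to 4.84. Neither gene was called in any comparison (0 genes).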

How the results depend on the processing

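The 3 counts of called members were recomputed under 21 alternatives each, and 51 of these 63 counts lay within 1.5 times the count given. The 21 counts between the mutants are among the 51 and were all 0. This rule compares counts and not genes. From the authors' normalized values 2 members were called in TrbE14 hearts, Cxcl13 and Cxcl12, without Cxcr3. In TrbE10 hearts, with 2 members called, the count was 1 with the filter on 9 of 12 arrays (Cx3cl1, as Cxcl13 was then not tested), 1 with the 2 groups alone and 1 with the replicate block (Cxcl13 in both), and 5 with Y-linked signal as a covariate, where Cxcl16, Ccl11 and Cxcl14 were added. In TrbE14 hearts, with 2 members called, it was 0 with the filter on 9 of 12 arrays, under which neither Cxcl13 nor Cxcr3 was tested, 4 with the replicate block (Cxcl12 and Ccl8 added), 4 with the covariate (Ccl11 and Cxcl14 added) and 4 by SAM (Cx3cl1 and Cxcl12 added). When single arrays were left out, the counts ranged from 1 to 3 in TrbE10 hearts and from 2 to 3 in TrbE14 hearts and were 0 between the mutants in every case. The count of 1 in TrbE10 hearts came without control replicates 1, 3 or 4 or TrbE10 replicate 3, and that of 3 without TrbE10 replicate 2. Cxcl13 was called in both mutants under each alternative that tested it. Over 453 recomputed changes of 11 named genes, none changed sign (0), 7 lost and 9 gained a call.

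Deviations of same-numbered arrays from their group means correlated between -0.24 and 0.48, with 3 of 12 pairs over 0.1. Those 3 were all of TrbE10 with TrbE14, at 0.37, 0.31 and 0.48 for replicates 1, 2 and 4, while replicate 3 gave -0.01. Pairs with control lay between -0.24 and 0.08. Of the 12 arrays 6 correlated best with their own number. What the same-numbered mutant arrays may share was not tested. Over the whole array the number of genes called in TrbE10 hearts, 387, was lowest at 149 (TrbE10 replicate 3 left out) and highest at 650 (TrbE10 replicate 2 left out), and was 183 with no filter. That in TrbE14 hearts, 137, ranged from 76 without control replicate 3 to 299 by SAM, so the background shares move likewise. Between the mutants it was 0 and at most 2, with no filter. The share of them that was higher went from 63.3% to 51.4% under scaling to the 75th percentile and to 76.6% under SAM in TrbE10 hearts, and from 76.6% to 65.5% after normexp and to 88.0% under SAM in TrbE14 hearts. The causes of these shifts were not tested. Signals near background, as for Ccr2, Ccr7, Ccr8 and Ccr9, limit what can be read from most receptors.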
